A study of Drosophila melanogaster with 72 samples.

Results

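Set1 (FBgn0040022), trr (FBgn0023518) and trx (FBgn0003862) encode the enzymes that methylate lysine 4 of histone H3 (H3K4) in Drosophila. They were chosen by name, as 3 of the 24278 features in the count tables, and all 3 passed the filter on low counts. The libraries hold nuclear RNA from the heads of male flies of age D10 (10 days after eclosion), kept at 25 °C in 12 h of light and 12 h of darkness. In every group, Rh1-Gal4, a driver active in the outer photoreceptors of the adult eye, expressed the nuclear tag UAS-GFP-KASH and 1 RNAi line, and each sample of 400 flies was enriched for tagged nuclei with beads against GFP. The RNAi lines targeted mCherry (a fluorescent protein that flies lack, and the control), Set1, Trr or Trx, and nuclei were collected at zeitgeber time (ZT, hours after lights on) 0, 4, 8, 12, 16 and 20, with 3 replicates each. The flies differed in no other labelled allele or agent, and collections in the dark were made under red light. Set1 RNAi ZT20 had 2 usable replicates, since its replicate 1 held 687 counts in all, and 71 of 72 libraries entered the fits.

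H3K4 methylation marks active chromatin, and each enzyme works inside a multi-protein COMPASS complex with shared core subunits. Set1 places most of the trimethylation found at active promoters. Trr, the relative of mammalian MLL3 and MLL4, places monomethylation, mainly at enhancers, and is a co-activator of the ecdysone receptor. Trx, the relative of mammalian MLL1 and MLL2, is the founding Trithorax group protein and maintains the active state of homeotic genes. In photoreceptors much of the transcriptome follows the daily cycle of light and of the circadian clock.

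Set1 lies on chromosome arm 3L from 25107594 to 25115180 on the plus strand (BDGP6.46), with 7 merged exon blocks and 5555 exon bases. trr lies on X from 1881313 to 1889950 on the minus strand, with 6 exon blocks and 8314 exon bases. trx lies on 3R from 14263358 to 14286903 on the minus strand, with 9 exon blocks and 14052 exon bases. The primers that the study designed for quantitative PCR of these transcripts are shown because they identify each one by sequence. They are written 5′ to 3′ in lower case, with no part set in capitals:
Set1 primer 1: aaggaaccgtacgctatgtttt
Set1 primer 2: ttcagttcgcgcacatccag
trr primer 1: ggaccgctgggcaataataa
trr primer 2: ctcgatgatcttgcaggtaagg
trx primer 1: tggctatgtggtgctcaataa
trx primer 2: ccattacgggagaggtgtaatc

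Counting ignored strand, and reads in exons that overlap another gene were given to neither. The shared bases make up 4.63% of the Set1 exons (with MED21, on the other strand), 1.44% of the trr exons (with Coa8, on the other strand), and 4.06% and 0.07% of the trx exons (with asRNA:CR46020 and CG14839, both on the other strand). Total counts per library ranged from 8424081 to 24586538. Each member had between 770 and 17036 counts in every library used. Within groups, pairs of libraries correlated at 0.875 to 0.996 over well-expressed features. The control library ZT12 replicate 1 lay farthest from its replicates, with a mean r of 0.882 against a median of 0.986 over all libraries. The labels place the control and Set1 RNAi libraries on HiSeq and the Trr and Trx RNAi libraries on NovaSeq X Plus, so for Trr and Trx RNAi the sequencing platform and the genotype cannot be told apart. The groups are called by their labels, which the nuclear RNA of the targeted genes did not check in every case. Set1 was not called lower in Set1 RNAi (log2 fold change -0.03), trr was lower in Trr RNAi (-0.94) and nearly as low in Trx RNAi (-0.86), and trx was lower in Trx RNAi by little (-0.17).

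The nuclei of the 4 genotypes also differed in marker RNA. The summed level of 10 outer photoreceptor genes had a median of 80774 CPM (counts divided by library size, with the TMM factors of edgeR) in the control, 68426 in Set1 RNAi, 17447 in Trr RNAi and 18227 in Trx RNAi. All 10 genes were called lower than in the control in each knockdown, as were 18.8% of all features in Set1 RNAi, 38.1% in Trr RNAi and 38.8% in Trx RNAi. Most markers of other cells were called higher in Trr and Trx RNAi, where 44.6% and 44.5% of all features were. They were 5 of 5 glial, 5 of 5 muscle, 4 of 4 inner photoreceptor and 4 of 4 hemocyte genes in both, 5 of 6 brain neuron genes with 1 lower in both, and 3 of 5 fat body genes in Trr RNAi and 4 of 5 in Trx RNAi. Of 4 lens and pigment cell genes, 3 were higher and 1 (w) was lower. In such bulk samples, fewer cells of a type and less RNA per cell cannot be told apart. Its part in the values of Set1, trr and trx was not tested.

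Per kilobase of exon, the order of the control means was Set1, trx and trr. Set1 was at 47.9 ± 7.45 CPM per kb (SD, n = 18), trx at 39.7 ± 5.29 (SD, n = 18) and trr at 26.4 ± 10.1 (SD, n = 18). The ranges of neighbours in this order overlapped, with 28.1 to 66.2 CPM per kb for Set1, 32.5 to 48.6 for trx and 10.3 to 47.0 for trr. Within a library, trx exceeded Set1 in 2 of 18 control libraries and trr exceeded Set1 in 3, all by level per kb. The 3 were the ZT4 libraries, where the ratio of trr to Set1 averaged 1.23, against 0.334 at ZT20. In Set1 RNAi the means were 47.6 ± 9.16 for Set1, 38.4 ± 4.68 for trx and 36.2 ± 11.1 for trr (SD, n = 17). In Trr RNAi the order of Set1 and trx turned, with 36.6 ± 5.38 CPM per kb for Set1 and 39.3 ± 2.43 for trx, and trr was at 13.0 ± 1.21 (SD, n = 18). In Trx RNAi, Set1 was at 33.6 ± 5.31, trx at 35.3 ± 3.48 and trr at 13.8 ± 1.21 (SD, n = 18). A ratio within a library does not depend on the scaling.

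**Figure D1:**
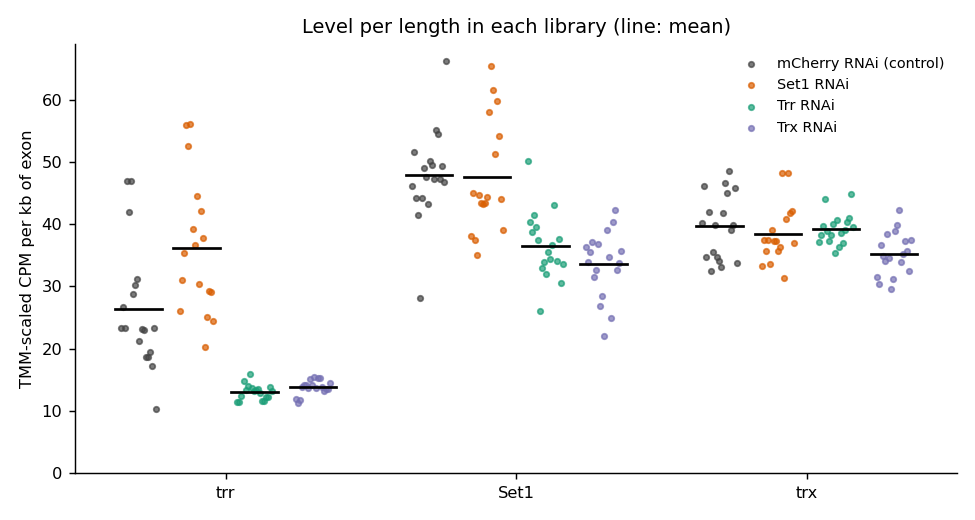
Level of trr, Set1 and trx in each library, as TMM-scaled CPM per kilobase of exon, by genotype; black lines are means. trr was at a mean of 26.4 in the control and 36.2 in Set1 RNAi, with a wide spread over the day, and at 13.0 and 13.8 with a narrow one in Trr and Trx RNAi.

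trr had the largest daily amplitude of the 3 in the control and in Set1 RNAi. Its nuclear RNA was highest 4 h after lights on in both. The mean then fell at each later time point of the control, to its lowest at ZT20, a low that rested on replicate 3 (85.9 CPM). In Set1 RNAi the mean was lowest at ZT16. In the control, the 3 replicates were at 194, 222 and 193 CPM at ZT0. At ZT4 they were at 391, 349 and 391 CPM. At ZT8 they were at 240.0, 252 and 259 CPM. From ZT0 to ZT4 the level thus rose in all 3 libraries beyond the range of the earlier group, and it came down again by ZT8. At ZT12 the libraries were at 177, 192 and 191 CPM. At ZT16 they were at 155, 155 and 162 CPM. At ZT20 they were at 143, 193 and 85.9 CPM, a coefficient of variation of 38.2%, whereas that of the other 5 control groups was between 2.43% and 7.87%. The lowest ZT4 library (349 CPM) lay above all 15 other control libraries, of which the highest was at 259 CPM. In the order of the control means (ZT4, ZT8, ZT0, ZT12, ZT16, ZT20), the replicates of neighbouring time points did not overlap except for ZT16 and ZT20.

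A 24-h cosine was fitted to log2(CPM + 1), and rhythm was tested on its cosine and sine terms by the quasi-likelihood method of edgeR, with p adjusted after Benjamini and Hochberg over the 14767 features tested. For trr in the control, the fitted peak-to-trough amplitude was 1.26 ± 0.20 (SE) on the log2 scale, with a peak at 5.41 h (SE 0.60 h) and an adjusted p of 2.33e-11 in edgeR. The ZT4 mean was 2.68-fold the ZT20 mean, which replicate 3 of ZT20 pulled down. At this threshold (adjusted p under 0.05), 42.6% of all features tested were rhythmic in the control, and the median of their log2 amplitudes was 0.89. Leaving out any one control library gave edgeR adjusted p values between 6.09e-12 and 9.35e-10.

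In Set1 RNAi, the trr libraries were at 217, 258 and 294 CPM at ZT0. At ZT4 they were at 465, 437 and 467 CPM. At ZT8 they were at 326, 305 and 370 CPM. The ZT4 libraries again lay above every other library of the genotype, the highest of which was at 370 CPM. At ZT12 they were at 252, 351 and 314 CPM. At ZT16 they were at 168, 208 and 243 CPM. The 2 libraries at ZT20 were at 243 and 203 CPM. Among neighbours in the order of the means (ZT4, ZT8, ZT12, ZT0, ZT20, ZT16), only ZT4 and ZT8 had replicates that did not overlap. By time of day, those of ZT0 and ZT4 and those of ZT12 and ZT16 did not overlap either. The spread between replicates was wider than in the control, with a median coefficient of variation over the groups of 13.9% against 5.48%. The rhythm of trr in Set1 RNAi had an amplitude of 1.02 ± 0.17 (SE) on the log2 scale, a peak at 5.95 h (SE 0.63 h) and an adjusted p of 9.88e-08 in edgeR, where 34.1% of all features tested were rhythmic. A difference from the control rhythm was not detected, with an edgeR adjusted p of 0.585, and this test called 3.6% of all features.

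**Figure D2:**
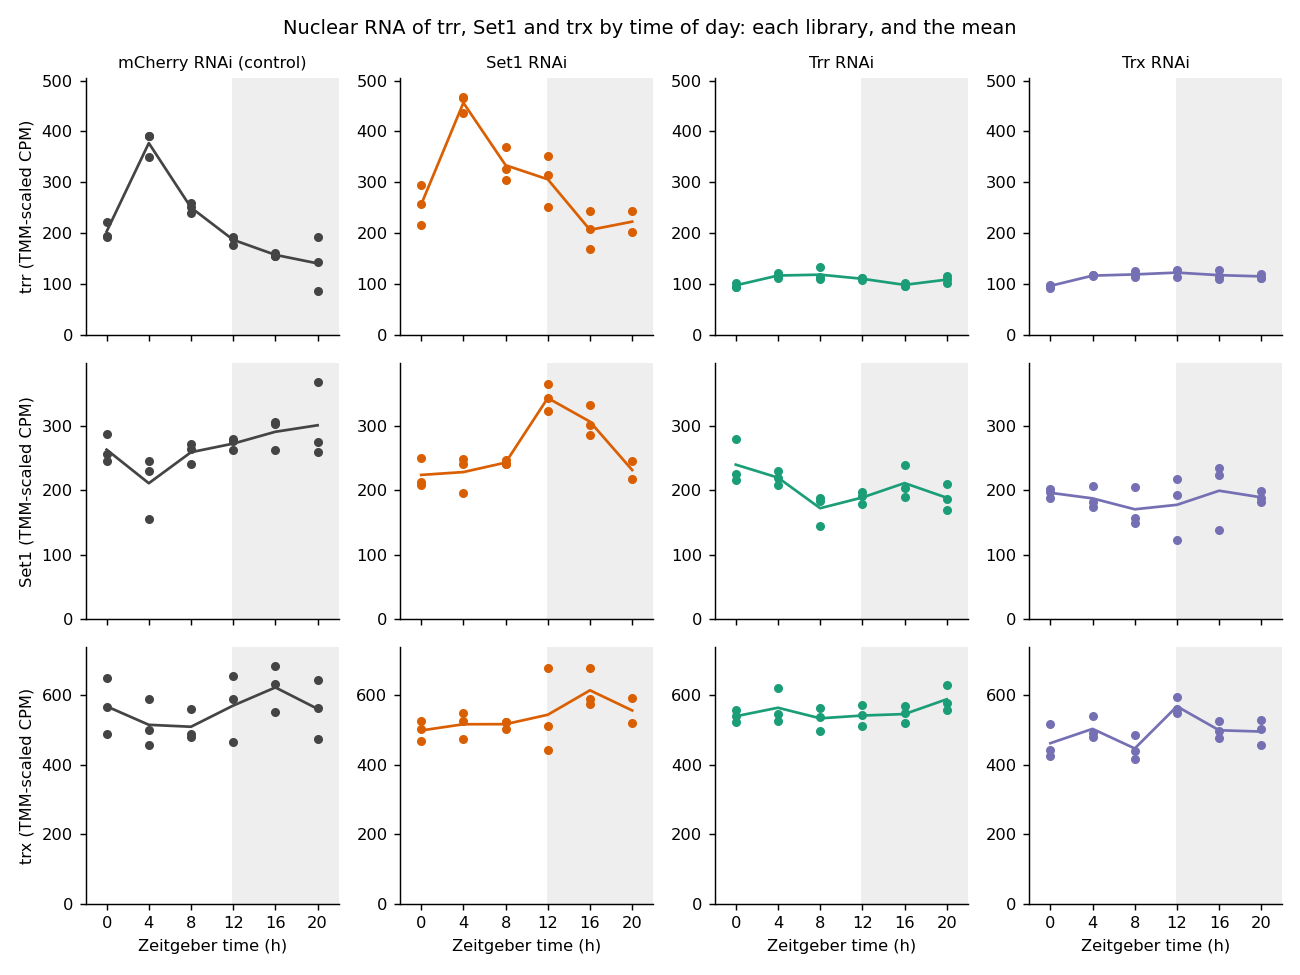
TMM-scaled CPM of trr, Set1 and trx at 6 zeitgeber times in each genotype, with a point for each library and a line through the means. Grey shading marks darkness from ZT12 on, and the margin left of ZT0, also dark, is unshaded. The ZT4 peak of trr reached 391 CPM in the control and 467 CPM in Set1 RNAi, whereas no library of Trr or Trx RNAi exceeded 133 CPM.

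With Trr and Trx RNAi, trr was low at every time point and its daily amplitude was small. It was at 94.8 to 133 CPM (median 109) in the 18 Trr RNAi libraries and at 93.0 to 128 CPM (median 115) in the 18 Trx RNAi libraries. All 36 lay inside the control range of 85.9 to 391 CPM, near its lower end, where ZT20 replicate 3 was the lowest control library. The time point means ran from 97.5 CPM at ZT0 to 118 CPM at ZT8 in Trr RNAi and from 96.4 CPM at ZT0 to 123 CPM at ZT12 in Trx RNAi. In Trx RNAi the 3 libraries at ZT0 (93.0 to 99.0 CPM) lay below all 15 others, of which the lowest was at 110 CPM. The fitted amplitude was 0.22 ± 0.07 (SE) on the log2 scale in Trr RNAi and 0.25 ± 0.07 (SE) in Trx RNAi. Neither was called rhythmic, with edgeR adjusted p values of 0.65 and 0.929, where 5.88% and 4.06% of all features were. The difference from the control rhythm was called with Trr RNAi (edgeR adjusted p = 8.33e-05) and with Trx RNAi (edgeR adjusted p = 1.32e-06). These tests called 21% and 17.6% of all features, so a changed rhythm was common in both genotypes. Both share their control libraries. With each genotype fitted alone, the edgeR adjusted p of the trr rhythm was 0.0632 in Trr RNAi and 0.0714 in Trx RNAi.

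**Figure D3:**
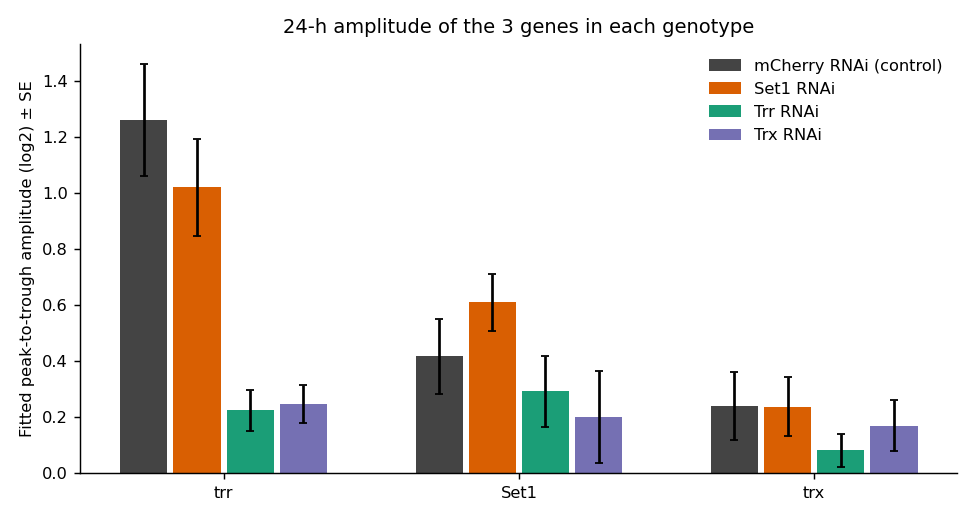
Peak-to-trough amplitude of the fitted 24-h cosine on the log2 scale, with its standard error, for trr, Set1 and trx in each genotype. trr fell from 1.26 in the control to 0.22 and 0.25 in Trr and Trx RNAi, while trx was at 0.24 or lower in every genotype.

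Averaged over the day, trr was higher than in the control in Set1 RNAi and lower in both other knockdowns. The log2 fold change was 0.47 (SE 0.06, edgeR adjusted p = 9.09e-10) in Set1 RNAi, where 41.9% of all features were called, 23.1% higher and 18.8% lower (27.4% and 14.4% with total counts). At single time points, trr was called higher at ZT8 (0.41, edgeR adjusted p = 0.03), ZT12 (0.71, edgeR adjusted p = 8.07e-05) and ZT20 (0.66, edgeR adjusted p = 0.00175). The share of all features called higher at these time points was 10.4%, 16% and 5.84%. At ZT0, ZT4 and ZT16 the log2 fold change of trr was 0.34, 0.28 and 0.39, which did not pass, and 6.71%, 7.77% and 6.25% of all features did. The replicates of Set1 RNAi lay above those of the control at 5 of 6 time points, ZT0 being the exception. When replicate 3 was left out, 1 of the 6 time points was called, and 5 were called with DESeq2, with total counts or with at least 1 CPM in every library as the filter.

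In Trr RNAi the log2 fold change of trr was -0.94 (SE 0.06, edgeR adjusted p = 3.33e-22), and in Trx RNAi it was -0.86 (SE 0.06, edgeR adjusted p = 1.31e-20). Of all features, 82.7% were called in Trr RNAi (44.6% higher, 38.1% lower) and 83.3% in Trx RNAi (44.5% higher, 38.8% lower), so a call alone sets trr apart little. With total counts, 66.9% were called higher and 20.6% lower in Trr RNAi, and 68.4% and 20% in Trx RNAi. The difference from the control was largest at ZT4 in both knockdowns and became smaller towards the night. With Trr RNAi, trr was called lower at all 6 time points, with log2 fold changes of -1.06, -1.69, -1.08, -0.76, -0.68 and -0.37 from ZT0 to ZT20. The share of all features called lower at these time points was 27.2%, 29.2%, 29.7%, 28.2%, 27.7% and 30.4%. With Trx RNAi, the values were -1.08, -1.69, -1.07, -0.61, -0.42 and -0.29, of which the last did not pass (edgeR adjusted p = 0.0609). Here 29.4%, 30.2%, 29.9%, 28.6%, 26.9% and 30.4% of all features were called lower. The libraries of both knockdowns lay below those of the control at each time point from ZT0 to ZT16 and overlapped them at ZT20. Between Trr and Trx RNAi, which share a platform, a difference in trr was not detected, with a log2 value of -0.08 (95% interval -0.19 to 0.03, edgeR adjusted p = 0.449). That comparison called 9.32% of all features. Fitted without the control and Set1 RNAi libraries, the value was -0.09 and passed (edgeR adjusted p = 0.0194).

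**Figure D4:**
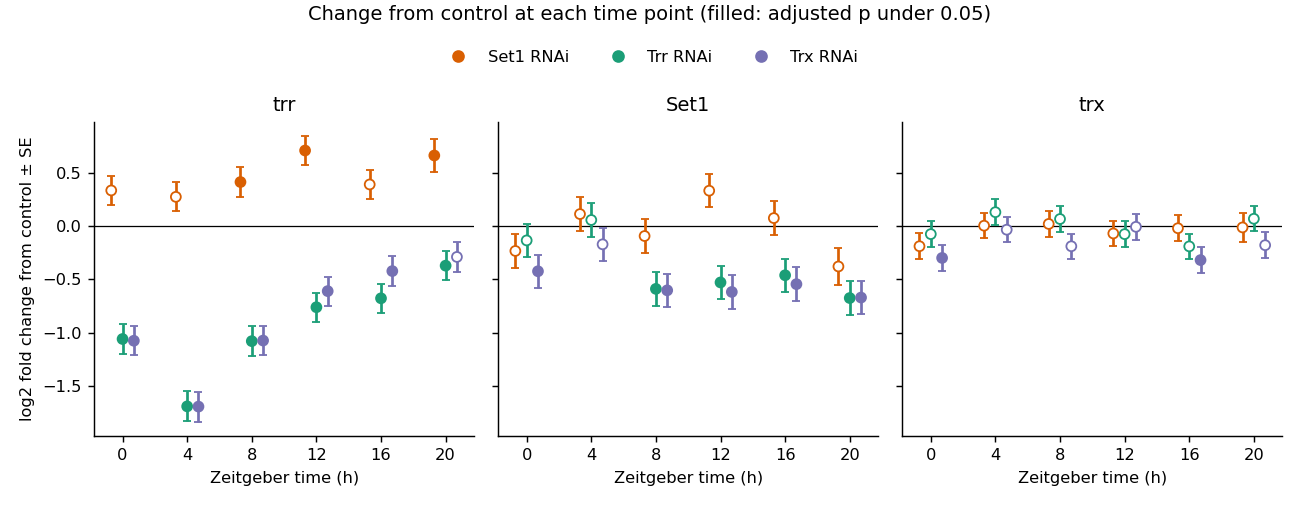
log2 fold change of trr, Set1 and trx from the control at each zeitgeber time, with standard errors, in Set1, Trr and Trx RNAi; filled points had an adjusted p under 0.05 in edgeR. trr reached -1.69 at ZT4 in Trr and Trx RNAi and 0.71 at ZT12 in Set1 RNAi.

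Model selection gave a second description of the profiles. For each feature, 52 models were compared in which each genotype has no rhythm, its own or a shared one, and 64.8% of features were assigned a model by a weight of at least 0.4 under the Bayesian information criterion (BIC). For trr, the chosen model had a rhythm shared by the control and Set1 RNAi and none in Trr or Trx RNAi, with a weight of 0.528. The same model was assigned to 15.3% of all features. Without replicate 3, a model with a second rhythm shared by Trr and Trx RNAi came first instead (weight 0.422). Set1 and trx were not assigned, with highest weights of 0.345 and 0.316.

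Other genes with the trr profile were sought over the 12 time point means of the control and Set1 RNAi, among 5813 named genes with a mean of at least 10 CPM. The means share libraries and scaling with those of trr, and the coefficients are descriptions. The 3 most alike were PIG-S (Pearson r = 0.995), a subunit of the transamidase that attaches GPI anchors, AdamTS-B (0.977), a secreted metalloprotease, and w (0.964), the white gene, a transporter of pigment precursors. For trr, 65 genes exceeded 0.9, compared with 3 for Set1 and 5 for trx. PIG-S had the smaller excursion, from 12.1 CPM at ZT20 to 26.3 CPM at ZT4 in the control. AdamTS-B went from 5.16 CPM at ZT20 to 159 CPM at ZT4, a 30.8-fold range. w went from 373 CPM at ZT16 to 4321 CPM at ZT4 in the control and from 1541 CPM at ZT20 to 6044 CPM at ZT4 in Set1 RNAi. w also serves as a marker in many fly transgenes, whose reads cannot be told from those of the gene itself. Coa8, the neighbour that shares 120 exon bases with the 3′ end of trr, peaked at ZT4 as well, at 32.6 CPM in the control against 10.7 CPM at ZT16 (edgeR adjusted p = 2.2e-07 for its rhythm). Its mean log2 fold change was -1.17 in Trr RNAi, -1.13 in Trx RNAi and 0.205 in Set1 RNAi. Counting ignored strand, so reads of trr RNA that runs past its 3′ end cannot be told from those of Coa8.

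**Figure D5:**
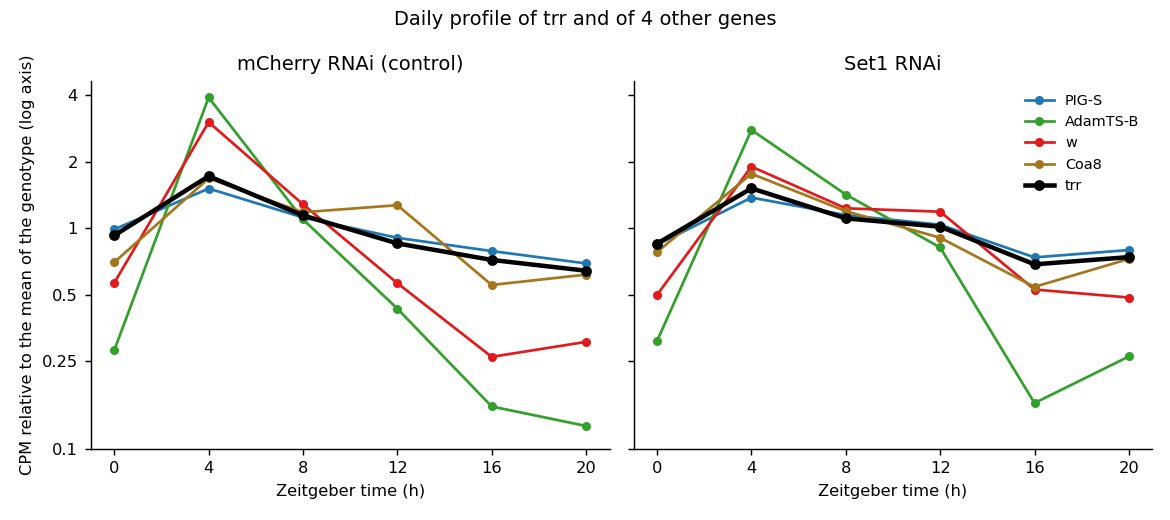
Time point means of trr and of PIG-S, AdamTS-B, w and Coa8, each divided by its mean in the genotype, on a log axis, in the control and in Set1 RNAi. All 5 genes were highest at ZT4, with a range of 30.8-fold for AdamTS-B and 2.68-fold for trr in the control.

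The marker sums of 2 other cell types were highest at ZT4 in the control and in Set1 RNAi, like trr, and each was carried by 1 gene. The sum of 5 glial genes averaged 820 CPM at ZT4 and 107 CPM at ZT0 in the control, and 1864 and 184 CPM in Set1 RNAi. Eaat1, a glutamate transporter, made up nearly all of this, with 761 CPM at ZT4 and 45.8 CPM at ZT0 in the control. repo, the transcription factor that defines glia, was at 12.5 to 17.8 CPM over the 6 control means and highest at ZT0, and alrm, wrapper and moody were not called rhythmic in the control either. None of the 5 was at 0 in all libraries. The sum of 4 lens and pigment cell genes was 4350 CPM at ZT4 and 399.8 CPM at ZT16 in the control, nearly all of it w, whereas Crys, st and pr were below 24 CPM at every time point. The other sums did not share this time in both genotypes. In the control, those of outer photoreceptor, muscle and fat body genes were highest at ZT12, that of brain neuron genes at ZT8, that of inner photoreceptor genes at ZT0 and that of hemocyte genes at ZT4. Their part in the trr profile was not tested.

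Set1 itself varied less over the day than trr, and its RNA did not separate the Set1 RNAi libraries from the control. In the control, Set1 was at 256, 287 and 245 CPM at ZT0 and at 231, 156 and 246 CPM at ZT4. It was at 272, 264 and 241 CPM at ZT8 and at 279, 276 and 262 CPM at ZT12. At ZT16 the libraries were at 306, 303 and 263 CPM and at ZT20 at 274, 260 and 368 CPM. Replicates of all neighbouring time points in the order of means overlapped. The lowest value (ZT4 replicate 2) and the highest (ZT20 replicate 3) each stood well away from the other replicates of their group. The fitted amplitude was 0.42 ± 0.13 (SE) on the log2 scale with a peak at 16.8 h (SE 1.22 h), below the median of 0.53 over all features. It passed the edgeR test of rhythm at an adjusted p of 0.0368, but not with time as a factor (0.0765). It did not pass either when any one of 8 control libraries was left out (ZT0 replicate 1, ZT4 replicates 1 and 2, ZT8 replicate 3, ZT12 replicate 1, ZT16 replicates 1 and 2, ZT20 replicate 3), with edgeR adjusted p values between 0.0555 and 0.189.

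In Set1 RNAi, Set1 had a clearer daily profile, with a peak at the start of the night. It was at 212, 251 and 209 CPM at ZT0 and at 195, 249 and 241 CPM at ZT4. It was at 241, 241 and 247 CPM at ZT8 and at 322, 364 and 342 CPM at ZT12. At ZT16 the libraries were at 285, 332 and 301 CPM, and at ZT20 the 2 libraries were at 245 and 217 CPM. The replicates of ZT12 and ZT16 lay above those of the other 4 time points. The amplitude was 0.61 ± 0.10 (SE) on the log2 scale with a peak at 13.5 h (SE 0.67 h), and the edgeR adjusted p of the rhythm was 0.00061. It stayed between 0.000258 and 0.00356 when any one control or Set1 RNAi library was left out. A difference from the control rhythm was not detected (edgeR adjusted p = 0.242).

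Over the day, Set1 averaged 266 ± 41.4 CPM (SD, n = 18) in control libraries. In those of Set1 RNAi it averaged 264 ± 50.9 CPM (SD, n = 17), and all 17 lay inside the control range of 156 to 368 CPM. The log2 fold change was -0.03 (95% interval -0.16 to 0.10, edgeR adjusted p = 0.747). None of the 6 time points passed, with log2 fold changes between -0.38 at ZT20 and 0.33 at ZT12. The replicates did not overlap at those 2 time points, where Set1 RNAi lay below and above the control. The nuclear RNA therefore gives no check of the Set1 RNAi label.

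In Trr and Trx RNAi, Set1 was lower than in the control with TMM scaling, though not with total counts alone, and had no called rhythm. It was at 145 to 279 CPM (median 200) in the 18 Trr RNAi libraries and at 123 to 235 CPM (median 191) in the 18 Trx RNAi libraries. The log2 fold change was -0.39 (SE 0.06, edgeR adjusted p = 2.49e-07) and -0.50 (SE 0.06, edgeR adjusted p = 3.41e-10), against the same control libraries. It was called lower at 4 of 6 time points with Trr RNAi (ZT8 to ZT20, -0.46 to -0.67) and at 5 with Trx RNAi, with the exception of ZT4 (-0.17, edgeR adjusted p = 0.35). By time point, 27.2% to 30.4% of all features were called lower in Trr RNAi and 26.9% to 30.4% in Trx RNAi. In the mean, 38.1% and 38.8% were. Without replicate 3, Set1 was called at 2 and 3 time points. With at least 1 CPM in every library it was called at 2 and 2, and with total counts at 2 and 1, in either direction. ZT4 was the time point at which the control was lowest. With 3 RUVs factors (covariates estimated from the replicates) in the fit, the mean difference did not pass in either (0.11 and 0.00401, edgeR adjusted p = 0.502 and 0.986). The edgeR adjusted p of the rhythm was 0.389 in Trr RNAi and 1 in Trx RNAi, and no difference from the control rhythm was called (0.0831 and 0.403). With time as a factor, the difference for Trr RNAi passed (edgeR adjusted p = 0.0413).

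trx, the longest of the 3, had the highest CPM in every genotype, and the smallest fitted amplitude of the 3 in each. Per kilobase of exon, its mean was below that of Set1 in the control (39.7 against 47.9) and in Set1 RNAi (38.4 against 47.6). In Trr and Trx RNAi, trx was above Set1 per kilobase as well. It was at 456 to 683 CPM (median 561) in the 18 control libraries, at 441 to 679 (median 524) in the 17 of Set1 RNAi, at 498 to 630 (median 547) in the 18 of Trr RNAi and at 416 to 594 (median 493) in the 18 of Trx RNAi. The ranges of the 4 genotypes overlapped over most of their width, and 5 Trx RNAi libraries lay below the control range. The control means were lowest at ZT8 (509 CPM) and highest at ZT16 (622 CPM), and those of Set1 RNAi were lowest at ZT0 (498 CPM) and highest at ZT16 (614 CPM). Replicates of neighbouring time points overlapped throughout in both. The amplitude was 0.24 ± 0.12 (SE) on the log2 scale in the control and 0.24 ± 0.11 (SE) in Set1 RNAi, and neither passed the edgeR test of rhythm (adjusted p = 0.112 and 0.122). Without ZT20 replicate 3 of the control the first passed (edgeR adjusted p = 0.0365), and without ZT12 replicate 3 of Set1 RNAi the second did (edgeR adjusted p = 0.0431). In Trr and Trx RNAi the adjusted p was 0.932 and 0.972. In Trx RNAi, the 3 libraries at ZT12 (548 CPM or more) lay above all 15 others, the highest of which was at 539.8 CPM, and the highest time point mean of trx was 1.27-fold the lowest, a larger ratio than that of Set1 there.

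With TMM scaling, the mean level of trx was lower in Trx RNAi than in the control by a log2 fold change of -0.17 (SE 0.05, edgeR adjusted p = 0.00129), and with total counts it was higher (0.53). At single time points it was called lower at ZT0 (-0.30, edgeR adjusted p = 0.0262) and ZT16 (-0.32, edgeR adjusted p = 0.0196), and the replicates lay apart at ZT16 alone. Of all features, 38.8% were called lower in the mean, 29.4% at ZT0 and 26.9% at ZT16. Without replicate 2, the mean difference did not pass (-0.10, edgeR adjusted p = 0.126), nor did any time point. With DESeq2 size factors it did not pass either (-0.05, edgeR adjusted p = 0.346). In Set1 RNAi the log2 fold change of trx was -0.04 (95% interval -0.14 to 0.05) and in Trr RNAi it was -0.01 (95% interval -0.11 to 0.08), and neither passed. With DESeq2 size factors, the value in Trr RNAi was 0.11 and passed (edgeR adjusted p = 0.0269). Between the knockdowns on one platform, trx was higher in Trr RNAi than in Trx RNAi by 0.16 on the log2 scale (SE 0.05, edgeR adjusted p = 0.0253). This did not pass without replicate 1 (0.237) or without replicate 2 (0.52).

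The direction of small changes in Trr and Trx RNAi rests on the scaling. TMM factors were 0.719 to 0.903 in the control and Set1 RNAi libraries and 1.12 to 1.36 in the others. The median log2 fold change of all features was 0.08 in Trr RNAi and 0.09 in Trx RNAi with TMM, and 0.71 and 0.78 when only total counts were used. With total counts, Set1 was higher than in the control (0.24 and 0.19 on the log2 scale) and so was trx (0.62 and 0.53), whereas trr was still lower (-0.31 and -0.16). Relative to the median feature, the values hardly moved. A change of scaling shifts all features by nearly the same amount, so this cannot tell which scaling is right. In Trr and Trx RNAi, trr stood at -1.02 and -0.95 from it with TMM and at -1.02 and -0.94 with total counts. Set1 stood at -0.47 and -0.59 from it with either. trx stood at -0.09 and -0.26 with TMM and at -0.09 and -0.25 with total counts. In Set1 RNAi, trr was 0.45 above the median feature with either scaling.

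The spread between replicates of trr and trx was close to that of other genes of like level, and that of Set1 was somewhat wider. The biological coefficient of variation fitted by edgeR was 13.7% for Set1, 11.9% for trr and 10.7% for trx, against a median of 20.1% over all features. Over the 500 features nearest in level to each, the median was 11.4% for Set1, 11.6% for trr and 11.4% for trx. Of these features, 73.2% had a lower coefficient than Set1, 53.4% than trr and 36.6% than trx.

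The genes closest to Set1 in profile were Sam-S (Pearson r = 0.937 over the 12 means), which makes S-adenosylmethionine, the methyl donor, CG4022 (0.905), and PlexA (0.902), a semaphorin receptor. In Set1 RNAi all 3 peaked at ZT12, like Set1, with 266 CPM for Sam-S. Those closest to trx were CG7611 (0.928), mRpS9 (0.923), a mitochondrial ribosomal protein, and Hmt4-20 (0.912), a histone H4 methyltransferase. All 3 were highest at ZT16 in the control and in Set1 RNAi.

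The partners of the enzymes and the H3K4 demethylases were examined as a list of 15 genes, all of which were tested. In the control, 6 of 15 were rhythmic in edgeR's test. They were the core subunits wds and Rbbp5, Cfp1 of the Set1 complex, Hcf and Mnn1, which bind Set1 or Trx, and Utx, the H3K27 demethylase of the Trr complex. In Set1 RNAi 5 of 15 were rhythmic, namely Cfp1, Hcf, Mnn1, Utx and the demethylase Su(var)3-3. These shares stand beside 42.6% and 34.1% of all features. Cfp1 peaked at 5.20 h in the control, near trr, with an amplitude of 0.76 on the log2 scale. Mnn1, the fly menin, and Utx peaked at 18.9 h and 19.0 h, with amplitudes of 0.94 and 0.90. The other Trr complex genes Lpt, Ptip, Pa1 and Ncoa6 were not called rhythmic in either genotype.

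In mean level, 3 of the 15 were called higher in Set1 RNAi (wds, Cfp1 and Ptip) and 3 lower (ash2, Hcf and Pa1), beside 23.1% and 18.8% of all features, with a median log2 fold change of -0.02 against 0.01 over all features. In Trr RNAi 4 were called higher (ash2, Dpy-30L1, Wdr82 and Mnn1) and 6 lower, and in Trx RNAi the same 4 were higher and 7 lower. Of all features, 44.6% and 38.1% were called higher and lower in Trr RNAi, and 44.5% and 38.8% in Trx RNAi, so these counts were near the background. The lower ones in both were Cfp1, Hcf, Ptip, Pa1, Ncoa6 and Su(var)3-3, joined by Utx in Trx RNAi. With total counts in place of TMM, 5 of the 6 and 6 of the 7 were above the control, Ncoa6 being the exception. All of them were below the median feature under either scaling, a place that a change of scaling can hardly alter. Ncoa6, the co-activator subunit of the Trr complex, was at a mean of 486 CPM in the control, 313 in Trr RNAi (log2 fold change -0.64, edgeR adjusted p = 2.59e-17) and 283 in Trx RNAi (-0.78, edgeR adjusted p = 6.32e-21). Hcf was at a mean of 452 CPM in the control and 308 and 290 CPM in these knockdowns. The median log2 fold change of the list was -0.08 in Trr RNAi and -0.15 in Trx RNAi, against 0.08 and 0.09 over all features tested.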

How the data were processed

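Nuclear RNA was sequenced in 72 libraries, from 4 RNAi lines at 6 zeitgeber times with 3 replicates each. The authors deposited raw paired-end counts per gene over merged exons, made per the file headers with featureCounts 2.0.1 without strand on BDGP6.46 and Ensembl 111. The submitters' processing notes also name cutadapt 3.7, Trimmomatic 0.39, HISAT2 2.2.1 and SAMtools 1.17. Counting without strand drops reads in exons shared by 2 genes. Total counts per library ranged from 8424081 to 24586538. Symbols were matched to 23751 of 24278 identifiers.

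Set1 RNAi ZT20 replicate 1 was excluded, as the study did for its poor quality. Features with at least 1 CPM in all replicates of at least 1 group were kept, which left 14767. Counts were scaled by TMM and fitted with the quasi-likelihood model of edgeR 4.0.16 (R 4.3.3), with 24 genotype and time groups or with a cosine and a sine of period 24 h per genotype. P-values were adjusted by the Benjamini-Hochberg method over all features tested and called under 0.05. They measure the spread between samples given as replicates, which the labels do not further describe. Amplitudes come from log2(CPM + 1). Rhythm models (52 per gene) were compared by BIC with dispersions from DESeq2 1.42.0, written out after the procedure of dryR. The labels and the study's text name different sequencers, and the labels were followed.

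The named genes are the 3 members, genes that overlap their exons, 15 partners and demethylases, and for each member the 3 genes of most like profile. The members and lists were chosen with earlier results of these data known. The scripts were tested on simulated counts. Alternatives covered scaling, filters, libraries, replicates, replicate blocks, RUVs factors (written out, 1 or 3 factors, since the number used in the study is not given in the sources used here), the shape of the rhythm and DESeq2.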

Additional observations from a re-analysis of the deposited data

Results flagged for a closer look

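The daily profile of trr differed from that of the control in both genotypes in which trr was low. For Trr RNAi against the control, edgeR's test of the difference in the cosine and sine terms gave an adjusted p of 8.33e-05, with a fitted amplitude of 0.22 on the log2 scale against 1.26. For Trx RNAi against the control the adjusted p in edgeR was 1.32e-06, with an amplitude of 0.25. The same control libraries enter both tests, and the sequencing platform differs between the control and both knockdowns. The cause was not tested.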

How the results depend on the processing

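The rise of trr in Set1 RNAi (0.32 to 0.52 on the log2 scale) and its fall in Trr RNAi (-1.01 to -0.31) and Trx RNAi (-0.92 to -0.16) were called in edgeR or DESeq2 under every alternative tried, as were its rhythm in the control and in Set1 RNAi and the changes of rhythm in Trr and Trx RNAi. The 0.32 came from the replicate block within genotype, which compared fitted levels of replicate 1 in place of means. Values of the other results that crossed the threshold or changed sign follow, and the cause was not tested. The leaving out of single libraries was added after seeing the data.

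The rhythm of Set1 in the control had adjusted p values of 0.0821 with 3 RUVs factors, 0.0738 with all 72 libraries, 0.0551 without a filter, 0.0927 with the control alone, 0.0765 with time as a factor and 0.0926 with total counts. Leaving out replicates or single libraries gave 0.0235 to 0.213 for it, 0.0365 to 0.702 for trx in the control and 0.0431 to 0.864 for trx in Set1 RNAi. The last was 0.0489 with 1 RUVs factor and 0.0185 with 3. The change of the Set1 rhythm in Trr RNAi was at 0.0413 with time as a factor.

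With total counts, levels in CPM per kb were 37.4, 44.2 and 42.6 for Set1 in the control, Trr and Trx RNAi, 15.8 and 17.6 for trr in Trr and Trx RNAi, and 31.1, 31.3, 47.5 and 44.8 for trx in the control, Set1, Trr and Trx RNAi. In log2 fold change of the mean, Set1 in Set1 RNAi was at 0.0253 with at least 1 CPM in every library, 0.0286 with total counts, 0.000536 with DESeq2 size factors and 0.000558 in DESeq2, and -0.114 to 0.0238 with a replicate left out. trx in Set1 RNAi was at 0.0136 with 1 CPM in every library and 0.0136 with total counts. In Trr RNAi, Set1 was at 0.11 with 3 RUVs factors and 0.24 with total counts, and trx at 0.19 with 1 CPM in every library, 0.11 with DESeq2 size factors and in DESeq2, 0.0177 without a filter, 0.62 with total counts and -0.0653 to 0.0195 with a replicate left out. In Trx RNAi, Set1 was at 0.00401 with 3 RUVs factors and 0.19 with total counts, and trx at 0.0667 with 1 CPM in every library, -0.046 with DESeq2 size factors, -0.046 in DESeq2, 0.53 with total counts and -0.25 to -0.0981 with a replicate left out. Between Trr and Trx RNAi, trr was at -0.091 with those genotypes alone, and trx at 0.14 with all 72 libraries, 0.15 without a filter, 0.0863 with total counts and 0.12 to 0.18 with a replicate left out.

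Whether the replicate numbers pair the samples was not settled. The deviations of same-numbered samples correlated by 0.01 on average, and 30 of 71 libraries were closest to their own number. Within a genotype the mean was 0.05, with 48% of pairs over 0.1, against 28.3% for different numbers in different groups. Pairing within a genotype was not tested and is not excluded by these values. With the replicate block within genotype, the genotypes were compared at their fitted level in replicate 1, not in their mean. In this setting, trx between Trr and Trx RNAi was at 0.19 and did not pass (edgeR adjusted p = 0.331). There the rise of trr in Set1 RNAi was at 0.32 and called at 1 of 6 time points in place of 3. These values are therefore not means adjusted for the block. Neither block changed another call of a mean or a rhythm. At the level of replicate 1, the block within genotype called 2844 features in Set1 RNAi, against 6180 for the mean in the main fit. Between Trr and Trx RNAi it called 389 against 1377.

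In the main fit, the first rhythm model of Set1 had a rhythm shared by the control and Set1 RNAi (weight 0.345). That of trx had a rhythm shared by the control, Set1 RNAi and Trx RNAi (0.316). The first model changed in some alternatives. With all 72 libraries it was a rhythm in Set1 RNAi only for Set1 (weight 0.483) and no rhythm for trx (0.608). With the control and Set1 RNAi alone, a rhythm shared by both came first for each gene, as in the main fit (0.538 and 0.669). With TMM factors the model of trx was that of the main fit (0.444). The last 3 weights were above the 0.4 needed for an assignment, which those of the main fit were not. With a replicate left out, the weight of whichever model came first was 0.188 to 0.872 for Set1 (another model without replicate 1 or 2), 0.422 to 0.774 for trr (another without replicate 3) and 0.275 to 0.626 for trx (another without replicate 3, and no rhythm without replicate 2). Over all features, the counts of calls moved by over 1.5 times in some alternatives. A change of rhythm in Set1 RNAi was called for 531 features, 42 with only the genotypes compared, 43 without replicate 2, 66 without replicate 3, 813 and 1014 with 1 and 3 RUVs factors and 1372 in DESeq2. It was called for 3102 in Trr RNAi and 2595 in Trx RNAi, and for 1133 and 920 without replicate 2. Rhythms were called for 6293 features in the control, 868 in Trr RNAi and 600 in Trx RNAi, and for 3288, 2349 and 1724 with each genotype alone. Between Trr and Trx RNAi, 1377 features were called, 4171 with those genotypes alone and 351 without replicate 2.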
